A study of Mus musculus with 6 samples.

Results

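The genes described here are those of glycolysis, lactate handling and their regulation by hypoxia-inducible factor, together with Emb and Bsg, the chaperones of the lactate transporters. They were read in thymic iNKT1 cells, invariant natural killer T cells that express the transcription factor T-bet (encoded by Tbx21) and make interferon-gamma. The members were chosen by name from a list of 33 symbols. Of these, 32 were among the 17985 genes of the deposited table, and all 32 had a mean of at least 1 CPM (the reads of a gene scaled to a common library size) and so were among the 15691 genes tested. The list was drawn up with the differences between the groups already known. The members' own differences are therefore a description, and no p-value is given for them.

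RNA was sequenced from 2 groups of untreated mice on a C57BL/6 background, with 3 libraries each. Control mice (Ctrl) had the genotype Tbx21CreTg;Rosa26-LSL-YFP+/+, and conditional knockout mice (cKO) had Tgfbr2F/F in addition. Both groups therefore carried the Cre transgene and the fluorescent reporter, and only the loxP-flanked alleles of the TGF-beta receptor subunit differed. The Cre is driven by Tbx21, so that it acts only in cells that express or once expressed this gene. The labels used here give neither age nor the number of animals behind a library, so that the spread between replicates may be in part technical.

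Glycolysis splits glucose into pyruvate in the cytosol. Pyruvate then enters the mitochondria through the pyruvate dehydrogenase complex, or lactate dehydrogenase turns it into lactate, which leaves the cell through monocarboxylate transporters. These transporters reach the cell surface only with a chaperone of the immunoglobulin superfamily, basigin (Bsg) or embigin (Emb). HIF-1, a dimer of Hif1a with Arnt, binds hypoxia response elements and switches on many glycolytic genes, while prolyl hydroxylases of the Egln family mark Hif1a protein for degradation when oxygen is present. T cells are known for raising glycolysis when activated.

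Several facts of the whole data set bear on the values. The libraries held 28832779 to 68092478 reads, so that 1 read was worth 0.0147 to 0.0347 CPM. Both replicate 3 libraries stood apart from the other 4, with 4406 and 4590 genes listed at 0 against 0 to 5 genes elsewhere, and each group had 1 of them. The targeted gene Tgfbr2 was left at 61.0% of its Ctrl level in cKO. This level counts reads over the whole gene, so it does not give the share of alleles deleted. All 14 markers of iNKT1 cells were in the table and were read in every library. They summed to 10720 to 12910 CPM in Ctrl and 10660 to 14730 CPM in cKO. The sums overlapped, but 4 of the markers did not. Ccl5 and Ifng were higher in every cKO library than in any Ctrl library, and Xcl1 and Gzma were lower. The 25 proliferation genes summed to 1553 to 1739 CPM in Ctrl and 1306 to 1844 CPM in cKO. Summed markers of B cells (6 of 9 analysed here), myeloid cells (6 of 11), double-positive thymocytes (8 of 10), iNKT2 cells (8 of 9) and iNKT17 cells (9 of 12) overlapped between the groups. The 6 of 11 epithelial and stromal markers used (Krt5, Krt8, Foxn1, Pdgfrb and Cdh5 were not analysed here) summed to 34.1 to 43.3 CPM in Ctrl and 59.4 to 75.1 CPM in cKO. Pecam1 alone made that gap, at 23.0 to 30.6 CPM against 48.0 to 63.5 CPM, while the other 5 summed to 11.1 to 12.7 CPM and 11.4 to 12.9 CPM. Its part in the members' differences was not tested.

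In Ctrl cells hexokinase, aldolase, enolase and lactate dehydrogenase were each read mainly through 1 of the listed isoenzymes. Phosphofructokinase, phosphoglucomutase and pyruvate dehydrogenase kinase were divided among more than 1 listed gene. Levels of different genes were compared as CPM per kilobase of annotated exons, which allows for the length of the transcripts. Ldha, the lactate dehydrogenase subunit that favours lactate formation, had the highest level at 295 ± 34.0 CPM per kilobase (SD, n = 3). Aldoa (aldolase) at 221 ± 16.4, Eno1 (enolase) at 192 ± 10.2, Pkm (pyruvate kinase) at 175 ± 17.4 and Gapdh at 144 ± 19.8 CPM per kilobase followed. The ranges of Eno1 and Pkm overlapped, as did those of Pkm and Gapdh, so the order within these pairs is not resolved. The order also depends on the length used: per kilobase of the longest transcript, Eno1 (509.6 ± 27.0) was above Aldoa (416 ± 30.9) and overlapped Ldha (538.6 ± 62.0). Bsg came next at 101 ± 10.6 CPM per kilobase, and overlapped the next gene, Tpi1, at 85.9 ± 13.5.

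Some of the other isoenzymes were far lower. Ldhb, the lactate dehydrogenase subunit that favours the reaction from lactate to pyruvate, had 9.94 ± 1.75 CPM per kilobase in Ctrl (SD, n = 3), and Eno3, the muscle enolase, had 9.67 ± 0.622. At the bottom of the order were Egln3 at 1.40 ± 0.125, Aldoc at 0.960 ± 0.262, Hk2 at 0.552 ± 0.133 and Emb at 0.350 ± 0.137 CPM per kilobase. Emb and Hk2, the hexokinase that activated T cells are known to induce, overlapped in Ctrl. In cKO Emb reached 2.32 ± 0.625 CPM per kilobase (SD, n = 3), still far under Bsg at 103 ± 28.0. Among the members alone, the leading isoenzyme of each of the 8 steps with more than 1 listed gene stayed the same when the longest transcript gave the length. Egln2, which is not a member, was above Egln1 in Ctrl, at 30.7 against 5.66 CPM per kilobase.

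**Figure D1:**
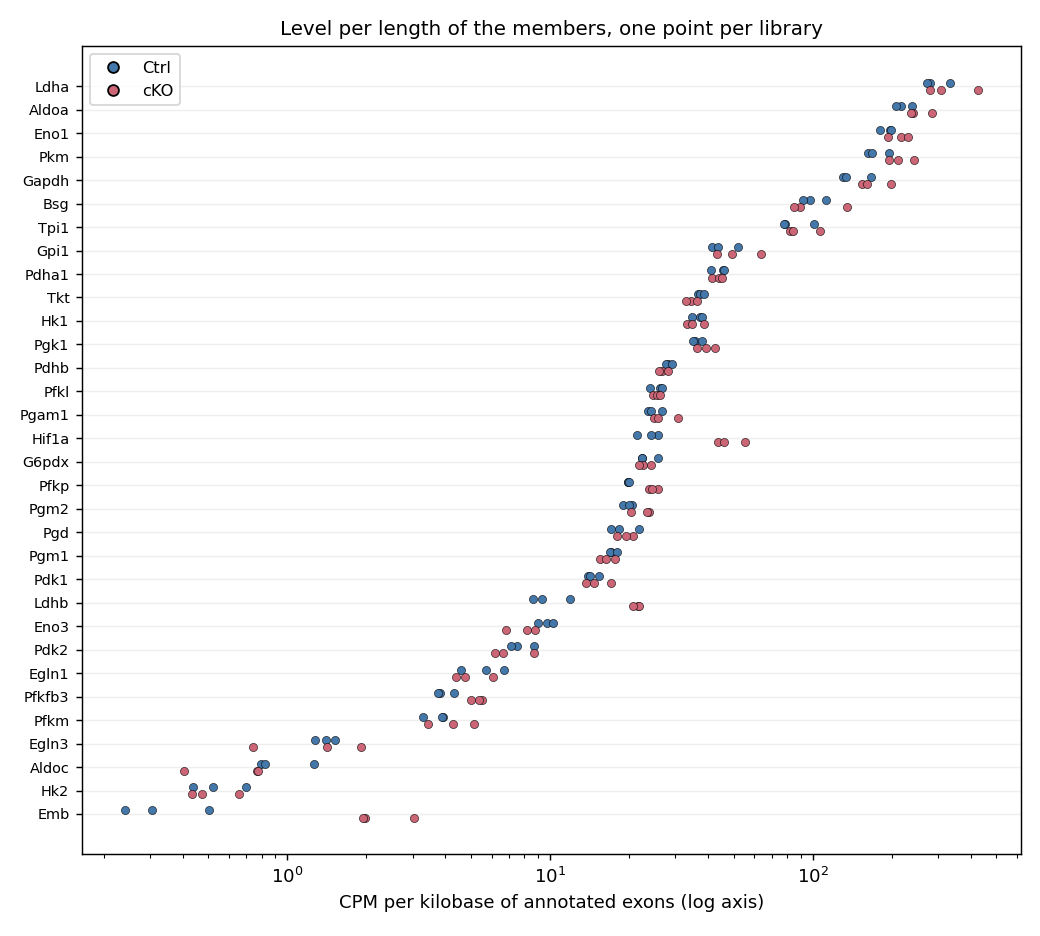
Level of the 32 genes in CPM per kilobase of annotated exons on a log axis, 1 point per library, ordered by the Ctrl mean (blue Ctrl, red cKO, 3 libraries each). Levels span from 0.350 for Emb to 295 for Ldha in Ctrl, and the red points of Emb, Ldhb and Hif1a lie to the right of all their blue points.

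Between the groups, 3 members stood out and all 3 were higher in cKO: Emb, Ldhb and Hif1a. They were the 3 of 32 members with a limma adjusted p under 0.05, where 0.663% of all tested genes passed in either direction and 0.204% were higher in cKO. This contrast was known when the list was made, so nothing is read from the share. No member was called lower, where 0.459% of all tested genes were. At an unadjusted p under 0.05 the limma fit had 6 members higher and 0 lower, against 2.33% and 3.68% of all tested genes. DESeq2 on the recovered reads had 6 higher and 0 lower after adjustment, against 1.78% and 1.74%, the additions being Pfkp, Pfkfb3 and Pgm2. The quasi-likelihood test of edgeR had 0 in either direction, against 0.0765% higher and 0.185% lower, and unadjusted it had 6 higher and 0 lower, against 2.78% and 2.66%. With the replicate number as a block, limma called 4 members, Pkm being the addition, against 2.87% of all tested genes.

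Emb (ENSMUSG00000021728, mm10 chromosome 13, 117220625 to 117274098, plus strand) had the widest difference of the 32. Ctrl replicates 1 to 3 had 2.11, 3.48 and 1.66 CPM, and cKO replicates 1 to 3 had 13.7, 13.4 and 21.03 CPM. Every cKO library was above every Ctrl library, and cKO replicate 3 was the highest. The means were 2.42 ± 0.945 and 16.05 ± 4.32 CPM (SD, n = 3), a 6.64-fold difference, with a fitted difference of 2.33 ± 0.302 (SE) in log2(CPM + 1). In bulk RNA, a larger share of cells with the transcript and more transcript per cell cannot be told apart.

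The size of the Emb difference varied between the same-numbered libraries. It was 6.47-fold in replicate 1, 3.87-fold in replicate 2 and 12.65-fold in replicate 3. Against the mean of replicates 1 and 2, replicate 3 was at 0.595 times in Ctrl and at 1.55 times in cKO, so replicate 3 widened the fold from both sides. Over replicates 1 and 2 alone the means differed 4.85-fold. The Ctrl values rest on 71, 107 and 88 reads and the cKO values on 394, 565 and 1432 reads. Leaving out any 1 of the 6 libraries kept the log2 difference between 2.13 and 2.54 but left Emb short of the threshold in all 6 fits. The authors' deposited table gives Emb a log2 fold change of 2.83.

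Emb has sequence in common with other genes, which makes its reads uncertain. Its exons share 686 bases with Gm17509 on the opposite strand, and no strand-specific counting is stated. A stretch of 326 bases is 96.9% identical to Rnf7, which was read at 48.3 CPM over the 6 libraries. The gene model of GENCODE release M21 also begins upstream of the deposited one, at 117208536.

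Bsg, the usual chaperone of the lactate transporters, did not share the pattern of Emb. It was read at 177, 167 and 204 CPM in Ctrl and at 163, 154 and 246 CPM in cKO. The groups overlapped, with replicate 3 the highest library of each group. The means were 183 ± 19.2 and 187 ± 50.8 CPM (SD, n = 3). Of the summed level of both chaperones per kilobase, Emb made up 0.312%, 0.545% and 0.214% in the Ctrl libraries and 2.16%, 2.25% and 2.20% in the cKO libraries.

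The lactate dehydrogenase subunits differed unequally. Ldhb (ENSMUSG00000030246, mm10 chromosome 6, 142490249 to 142507957, minus strand) had 18.7, 13.5 and 14.6 CPM in Ctrl and 34.0, 34.3 and 32.6 CPM in cKO, in replicate order. The cKO libraries lay close together and all above the Ctrl libraries. The means were 15.6 ± 2.74 and 33.6 ± 0.923 CPM (SD, n = 3), a 2.15-fold difference, or 1.07 ± 0.146 (SE) in log2(CPM + 1). Pair by pair it was 1.82-fold, 2.54-fold and 2.23-fold. Leaving out any 1 library kept the log2 difference between 0.98 and 1.20, with Ldhb short of the threshold in all 6 fits. A pseudogene, Gm5514, is 98.0% identical to Ldhb over 1002 bases, but was read at only 0.588 CPM.

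Ldha was read at 925, 900.5 and 1107 CPM in Ctrl and at 927, 1022 and 1409 CPM in cKO. The groups overlapped, and the means of 977.5 ± 113 and 1119 ± 255 CPM (SD, n = 3) differed by less than the spread of the cKO libraries. Within each library, Ldhb made up 4.09%, 3.06% and 2.71% of the summed lactate dehydrogenase level per kilobase in Ctrl, and 7.17%, 6.61% and 4.65% in cKO. Ldha thus remained the bulk of the pool in all 6 libraries. The share of Ldhb was lowest in replicate 3 of each group, where Ldha was highest.

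Hif1a (ENSMUSG00000021109, mm10 chromosome 12, 73901375 to 73947530, plus strand) encodes the oxygen-regulated subunit of HIF-1. It was read at 126, 152 and 143 CPM in Ctrl and at 257, 327 and 272 CPM in cKO. All cKO libraries were above all Ctrl libraries, and replicate 2 was the highest of each group. The means of 140.6 ± 13.4 and 285.7 ± 36.8 CPM (SD, n = 3) differed 2.03-fold, or by 1.01 ± 0.122 (SE) in log2(CPM + 1). The pairs gave 2.04-fold, 2.15-fold and 1.90-fold, the narrowest range of the 3 called members. Hif1a passed the threshold without cKO replicate 1 and without cKO replicate 3, and missed it in the other 4 fits that left out 1 library, where the log2 difference ran from 0.912 to 1.07. It also missed it under TMM scaling, at a log2 difference of 1.08, and with edgeR without the block. Its exons overlap Gm15283 on the opposite strand over 330 bases and Gm49321 on the same strand over 148 bases.

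The prolyl hydroxylase genes overlapped between the groups. Egln1, the main hydroxylase that acts on Hif1a protein, was read at 24.0, 16.5 and 20.6 CPM in Ctrl and at 17.1, 15.8 and 21.8 CPM in cKO. Egln3, a hydroxylase gene that is itself a target of HIF, was read at 3.75, 4.06 and 3.40 CPM in Ctrl and at 5.06, 3.76 and 1.97 CPM in cKO. The pair differences of Egln3 ran in opposite directions in replicates 1 and 3. Egln2, the remaining hydroxylase gene of the family, not a member and named after its values were seen, was read at 73.5, 84.55 and 100.1 CPM in Ctrl and at 91.9, 87.8 and 119 CPM in cKO, higher in 3 of 3 pairs, with a limma adjusted p of 1.0, and of 0.411 with the block.

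**Figure D2:**
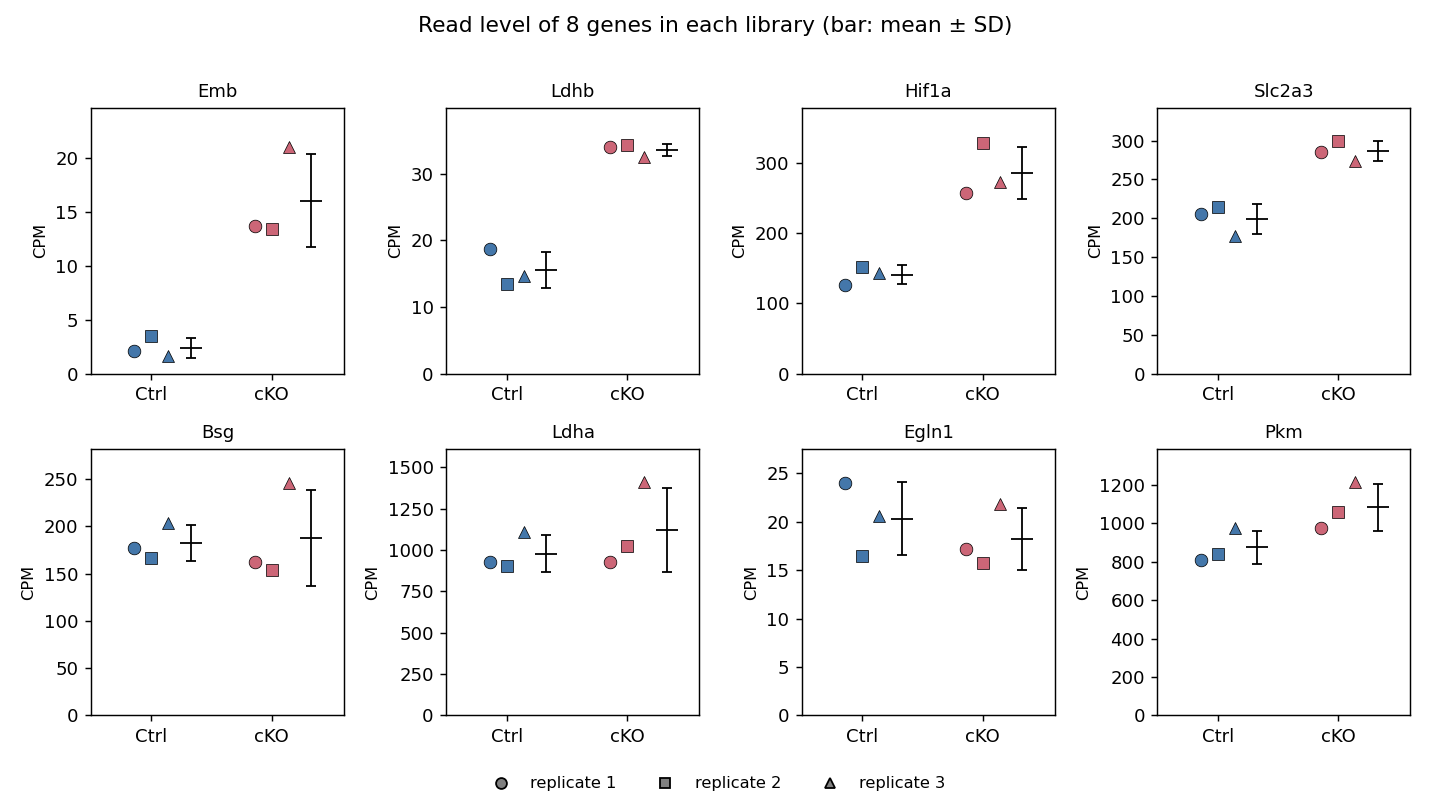
CPM of 8 genes in each library of Ctrl and cKO (circle, square and triangle for replicates 1, 2 and 3; bars are mean ± SD, n = 3; each axis starts at 0). Emb, Ldhb, Hif1a, Slc2a3 and Pkm have every cKO library above every Ctrl library, whereas Bsg, Ldha and Egln1 overlap.

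The promoter windows of the 3 called members and of Ldha are printed to show what sequence lies at their starts. They were taken from RefSeq on GRCm38.p6, from 250 bases before to 50 bases after a gene's start, 5′ to 3′ on the gene's strand. Capitals mark ACGTG or its reverse complement CACGT, a form of the core of a hypoxia response element. They also mark CAGAC or its reverse complement GTCTG, a SMAD box. The other form of the hypoxia core, GCGTG, was not searched, and it occurs unmarked in the Ldhb and Ldha windows. CACGTG counts once on each strand, since the core reads on both. The windows are Emb at chr13:117220323-117220622 (plus strand), Ldhb at chr6:142507908-142508207 (minus strand), Hif1a at chr12:73907617-73907916 (plus strand) and Ldha at chr7:46845554-46845853 (plus strand, the first of its listed starts).
Emb: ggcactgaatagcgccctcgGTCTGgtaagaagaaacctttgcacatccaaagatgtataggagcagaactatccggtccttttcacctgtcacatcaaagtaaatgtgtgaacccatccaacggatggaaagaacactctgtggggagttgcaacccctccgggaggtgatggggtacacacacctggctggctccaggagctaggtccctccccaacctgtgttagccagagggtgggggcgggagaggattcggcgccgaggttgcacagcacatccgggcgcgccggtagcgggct
Ldhb: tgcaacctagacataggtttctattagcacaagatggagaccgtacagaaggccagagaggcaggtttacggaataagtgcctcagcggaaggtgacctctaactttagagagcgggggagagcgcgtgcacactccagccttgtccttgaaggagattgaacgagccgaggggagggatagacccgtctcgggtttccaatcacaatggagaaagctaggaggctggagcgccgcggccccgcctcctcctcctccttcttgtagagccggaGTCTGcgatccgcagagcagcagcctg
Hif1a: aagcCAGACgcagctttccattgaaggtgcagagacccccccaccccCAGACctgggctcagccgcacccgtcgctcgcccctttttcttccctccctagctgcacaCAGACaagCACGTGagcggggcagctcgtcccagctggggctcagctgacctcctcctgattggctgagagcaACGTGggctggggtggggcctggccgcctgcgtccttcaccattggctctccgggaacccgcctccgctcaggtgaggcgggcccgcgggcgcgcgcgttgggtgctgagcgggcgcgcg
Ldha: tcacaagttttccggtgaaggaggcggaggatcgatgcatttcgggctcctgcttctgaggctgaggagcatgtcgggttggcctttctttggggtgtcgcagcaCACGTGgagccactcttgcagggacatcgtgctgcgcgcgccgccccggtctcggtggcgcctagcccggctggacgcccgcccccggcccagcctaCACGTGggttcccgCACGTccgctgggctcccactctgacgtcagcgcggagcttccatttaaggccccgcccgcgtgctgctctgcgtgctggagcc
The Ldha window held 5 matches of ACGTG over both strands and the Hif1a window held 3, whereas the Emb and Ldhb windows held 0. The other listed start of Ldha (chr7:46846832-46847131) had a window with 0 matches of either motif. Of CAGAC, the Hif1a window held 3 matches, the Emb and Ldhb windows 1 each, and the Ldha window 0. Of the 46 windows found for 31 members, 22 (47.8%) held ACGTG on either strand, against 19.6% of all 32851 windows. CAGAC was in 18 (39.1%) of them, against 49.6% of all windows. The members' windows were also richer in G and C, at a median of 60.8% against 52.7%. A match is a description of the letters and not a binding site.

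In the steps from glucose to triose phosphate, the members overlapped between the groups except for Pfkp, Pfkfb3 and Aldoc, described below. Hk1, the leading hexokinase, was read at 319, 322 and 297 CPM in Ctrl and at 284.5, 329.8 and 296 CPM in cKO. Hk2 was read at 4.16, 3.12 and 2.61 CPM in Ctrl and at 3.92, 2.83 and 2.60 CPM in cKO. Both hexokinase genes overlapped, and Hk2 made up 1.83%, 1.36% and 1.24% of the hexokinase level per kilobase in Ctrl and 1.93%, 1.21% and 1.24% in cKO. Hk1, Pfkl, Pdha1 and G6pdx had a mean difference below 0 that turned above 0 with TMM scaling, so their direction is not resolved.

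Phosphofructokinase, the committed step of glycolysis, showed a shift among its 3 genes. Pfkp, the platelet-type subunit, was read at 266.5, 265.5 and 267 CPM in Ctrl and at 320.6, 347 and 328 CPM in cKO. The groups did not overlap, and the log2 difference was 0.31, short of the threshold here but past it with TMM scaling and the block, and with DESeq2. Pfkl, the liver-type subunit, was read at 175, 178 and 160.5 CPM in Ctrl and at 165, 171 and 175 CPM in cKO, with overlap. Of the summed level of Pfkl, Pfkm and Pfkp per kilobase, Pfkp made up 39.7%, 39.3% and 42.2% in Ctrl and 45.2%, 45.8% and 45.2% in cKO. Pfkl was the largest part of that sum in all Ctrl libraries and in cKO replicates 1 and 3, and Pfkp was so in cKO replicate 2. With the longest transcript as the length, Pfkl led in all 6 libraries. Pfkp exons overlap Pitrm1 on the opposite strand over 748 bases.

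Pfkfb3, which makes the allosteric activator of phosphofructokinase, was read at 32.6, 28.9 and 28.5 CPM in Ctrl and at 37.9, 41.7 and 40.7 CPM in cKO. Its groups did not overlap and its mean was 1.34-fold higher in cKO, short of the threshold here but past it with DESeq2. Aldoa was read at 633, 603 and 697 CPM in Ctrl and at 699, 691 and 829 CPM in cKO, with overlap. Aldoc, the brain-type aldolase, was read at 2.59, 2.70 and 4.12 CPM in Ctrl and at 1.32, 2.498 and 2.53 CPM in cKO. All its cKO libraries were lower than all its Ctrl libraries, by a narrow margin, at a level of a few CPM.

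In the lower steps, Pkm was read at 812, 839 and 974 CPM in Ctrl and at 978, 1057 and 1216 CPM in cKO. Pkm encodes the pyruvate kinase of most tissues, including the M2 form of proliferating cells, and the gene-level values do not separate its forms. The groups did not overlap, at a 1.24-fold difference, or 0.31 in log2(CPM + 1), and this was the gene called with the replicate block alone. Gapdh was read at 538, 556 and 688 CPM in Ctrl and at 639, 665.5 and 819.5 CPM in cKO, higher within each pair but overlapping between the groups. The annotation holds 103 genes nearly identical to a stretch of Gapdh, so its reads are uncertain.

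Eno1 was read at 1056, 971 and 1073 CPM in Ctrl and at 1169, 1046 and 1244 CPM in cKO, with overlap, and the near-identical Eno1b (99.5% over 1736 bases) was read at 12.4 CPM. Eno3 went the other way, at 17.0, 15.7 and 17.8 CPM in Ctrl and at 14.2, 11.9 and 15.2 CPM in cKO. Eno3 made up 4.74%, 4.75% and 4.88% of both enolases per kilobase in Ctrl and 3.62%, 3.39% and 3.64% in cKO, without overlap. The remaining enzymes Gpi1, Tpi1, Pgk1 and Pgam1 were 1.06 to 1.14-fold higher on average and overlapped between the groups.

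**Figure D3:**
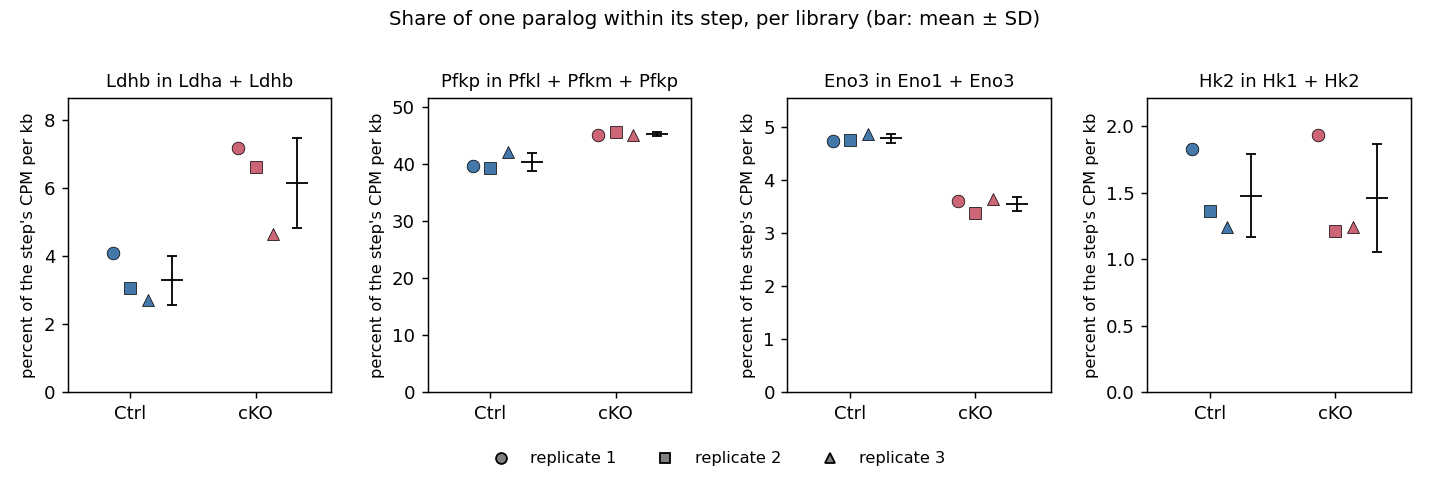
Share of 1 isoenzyme in the summed CPM per kilobase of its step, in percent, for each library (circle, square and triangle for replicates 1, 2 and 3; bars are mean ± SD, n = 3; each axis starts at 0). The shares of Ldhb and Pfkp are higher in every cKO library than in any Ctrl library, that of Eno3 is lower, and that of Hk2 overlaps.

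Some glycolytic genes differed between replicate numbers in both groups. Gpi1, Aldoa, Tpi1, Gapdh, Pgk1, Pgam1, Eno1, Pkm and Ldha together held 4574, 4494 and 5291 CPM in Ctrl and 5055, 5163 and 6379 CPM in cKO. Each cKO library was above its same-numbered Ctrl library, but Ctrl replicate 3 was above cKO replicates 1 and 2. Replicate 3 was over 1.1 times the mean of replicates 1 and 2 in both groups for 9 of the 32 members. Ldha had ratios of 1.21 in Ctrl and 1.45 in cKO. Replicate 3 was under 0.9 times that mean in both groups for 3 members, Hk2, Pfkm and Egln3. Hif1a, at 1.03 and 0.932, and Ldhb, at 0.908 and 0.954, passed neither bound. The share of all tested genes past these bounds was not computed, so the counts are not read as particular to the members. The part of replicate 3 in the members' differences was not tested.

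The pyruvate dehydrogenase genes and the branches off glycolysis were nearly level. Pdk1, a kinase that inhibits pyruvate dehydrogenase and a known HIF target, was read at 109, 111 and 119 CPM in Ctrl and at 115, 133 and 107 CPM in cKO. Pdk2, another such kinase, and the dehydrogenase subunits Pdha1 and Pdhb also overlapped, with mean ratios of 0.924, 0.983 and 0.954. Pgm2, a phosphoglucomutase gene of the branch to glycogen, was read at 60.2, 55.3 and 58.3 CPM in Ctrl and at 69.9, 68.5 and 59.7 CPM in cKO, with overlap, and was called higher by DESeq2 alone. The deposited symbols Pgm1 and Pgm2 are exchanged in GENCODE M21, so the gene described as Pgm2 is ENSMUSG00000025791. In the pentose phosphate pathway, which makes NADPH and ribose, G6pdx and Pgd had mean ratios of 0.972 and 1.02, with overlap. Tkt (transketolase) was lower without overlap, at 270.4, 275 and 283 CPM in Ctrl and 254, 267 and 242 CPM in cKO.

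Across the 32 members the differences were mostly small. The mean was higher in cKO for 19 members, where this held for 41% of all tested genes, and for 23 with TMM scaling. The groups did not overlap for 9 members, where this held for 11% of all tested genes. Of these, 6 were higher (3.89% of all tested genes) and 3, namely Aldoc, Eno3 and Tkt, were lower (7.1% of all tested genes). Within the same-numbered pairs, 16 members were higher in all 3 (11.5% of all tested genes) and 5 were lower in all 3 (18.5% of all tested genes). The median difference in log2(CPM + 1) was 0.071 over the members and -0.038 over all tested genes, or 0.135 and 0.011 with TMM scaling. This order turned when cKO replicate 3 alone was left out, at 0.027 for the members and 0.0885 for all tested genes. With both replicate 3 libraries left out it held, at 0.095 and -0.0225. For 27 of the 32 the fold lay within 0.8 to 1.25. Without Emb, Ldhb and Hif1a, the others ran from -0.42 to 0.41 in log2, with a median of 0.031.

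**Figure D4:**
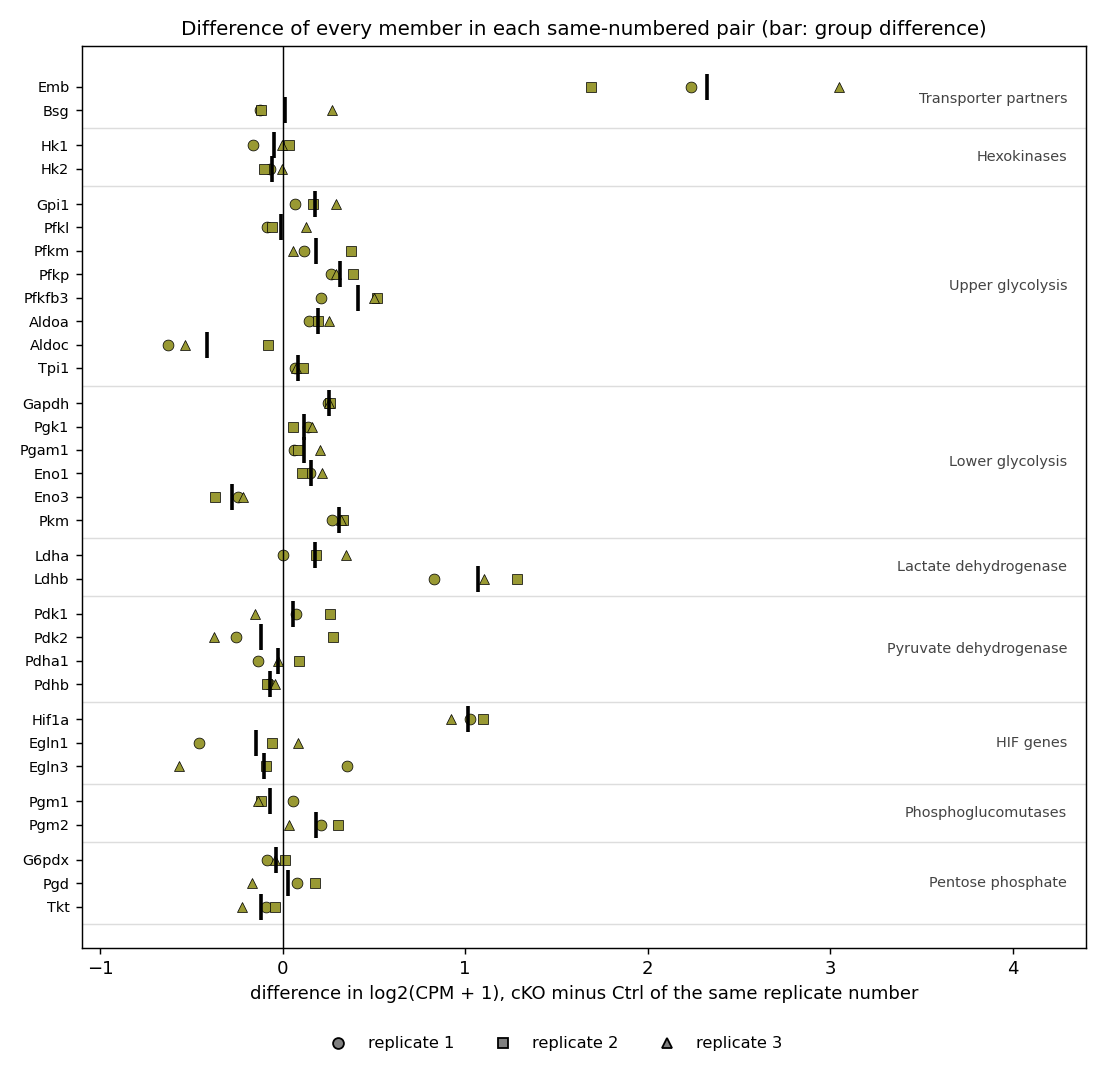
Difference in log2(CPM + 1), cKO minus Ctrl, of each gene in each same-numbered pair (circle, square and triangle for replicates 1, 2 and 3), with a bar at the group difference and genes ordered by role. Emb, Ldhb and Hif1a lie at 2.33, 1.07 and 1.01, and the bars of the other 29 genes lie between -0.42 and 0.41.

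The neighbouring genes of the pathway, in 5 lists that exclude the members, differed in both directions. Of 109 genes listed, 94 were in the table and 92 were tested. The limma fit called 0 of them, with 6 higher and 8 lower at an unadjusted p under 0.05, against 2.33% and 3.68% of all tested genes. The edgeR quasi-likelihood test also called 0, with 5 higher and 3 lower unadjusted, against 2.78% and 2.66%. DESeq2 called 4 higher and 3 lower, against 1.78% and 1.74%. With the replicate block limma called 2 higher, against 1.24% of all tested genes, and 6 lower, against 1.64%. The mean was higher for 41 of the 92 (44.6%, against 41% of all tested genes), and their median log2 difference was -0.02, against -0.038.

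Among the 9 tested genes of lactate, glucose and pyruvate transport, Slc2a3 alone was called with the block. Slc2a3 encodes GLUT3, a high-affinity glucose transporter. It was read at 205.5, 215 and 177 CPM in Ctrl and at 285, 299 and 274 CPM in cKO. The means of 199 ± 19.6 and 286 ± 12.8 CPM (SD, n = 3) differed by 0.53 in log2(CPM + 1), higher in 3 of 3 pairs, with a limma adjusted p of 0.112, and of 0.00813 with the block. Slc2a1 (GLUT1) was read at 123, 107 and 93.4 CPM in Ctrl and at 142, 109 and 112 CPM in cKO, with overlap and no call.

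The lactate transporters that Emb and Bsg escort did not pass the test in any direction. Slc16a1 (MCT1), the partner of both, was read at 51.6, 51.3 and 50.6 CPM in Ctrl and at 56.0, 51.9 and 58.3 CPM in cKO. The cKO libraries were all above the Ctrl libraries by a narrow margin. Slc16a3 (MCT4), the exporter of glycolytic cells, was read at 6.75, 11.6 and 11.1 CPM in Ctrl and at 8.46, 14.5 and 13.5 CPM in cKO. Slc16a7 (MCT2) was read at 2.62, 3.05 and 0.283 CPM in Ctrl and at 1.98, 2.07 and 0.191 CPM in cKO, with both replicate 3 libraries far lower. Nptn, a chaperone related to Bsg, was read at 105, 84.5 and 89.4 CPM in Ctrl and at 97.3, 93.7 and 102 CPM in cKO.

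In the other lists the calls made with the block were mostly lower in cKO. Pygl, the liver-type glycogen phosphorylase, was read at 51.1, 45.1 and 29.2 CPM in Ctrl and at 12.3, 2.78 and 1.03 CPM in cKO. Its log2 difference was -3.16, lower in 3 of 3 pairs, with a limma adjusted p of 0.158, and of 0.00134 with the block. Acss2, which makes acetyl-CoA from acetate, was read at 188, 156 and 114.5 CPM in Ctrl and at 128, 97.6 and 59.5 CPM in cKO (log2 difference -0.72, limma adjusted p 0.827, and 0.00513 with the block). Its groups overlapped, since both replicate 3 libraries were the lowest of their group.

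Ldhd, which oxidises D-lactate, was read at 1.96, 3.93 and 2.87 CPM in Ctrl and at 0.104, 0.119 and 1.15 CPM in cKO (log2 difference -1.47, limma adjusted p 0.567, and 0.0144 with the block). The first of these cKO values rests on 3 reads and the second on 5. Galm, the mutarotase of galactose and glucose, was read at 15.25, 18.9 and 22.0 CPM in Ctrl and at 4.99, 8.64 and 14.3 CPM in cKO (log2 difference -1.03, limma adjusted p 0.601, and 0.0245 with the block). Tktl1, a transketolase-like gene, was read at 18.3, 12.25 and 13.35 CPM in Ctrl and at 8.32, 7.11 and 7.34 CPM in cKO (log2 difference -0.85, limma adjusted p 0.249, and 0.0273 with the block). Galm, Tktl1 and Ldhd were lower in 3 of 3 pairs, with no overlap between the groups.

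Among 26 tested genes that HIF is known to regulate or that regulate HIF, 1 was called higher and 1 lower with the block. Of all tested genes, 1.24% and 1.64% were. DESeq2 called 3 of the 26 higher and 0 lower after adjustment, against 1.78% and 1.74% of all tested genes. Rora, a nuclear receptor gene, was read at 34.0, 41.8 and 60.7 CPM in Ctrl and at 87.4, 98.7 and 101 CPM in cKO (2.11-fold, higher in 3 of 3 pairs, limma adjusted p 0.114, and 0.00236 with the block). Ndrg1, a gene known to be induced in hypoxia, was read at 10.4, 13.2 and 14.3 CPM in Ctrl and at 3.47, 7.64 and 7.55 CPM in cKO (log2 difference -0.97, lower in 3 of 3 pairs, limma adjusted p 0.538, and 0.0273 with the block). At an unadjusted p under 0.05 without the block, 5 of the 26 were higher (Hif1an, Ankrd37, Ddit4, P4ha1 and Rora) and Ndrg1 was lower, against 2.33% and 3.68% of all tested genes. With the block, 7 of the 26 were higher and 3 lower (Arnt2, Car12 and Ndrg1) at an unadjusted limma p under 0.05. Of all 15691 tested genes, 762 were higher and 1219 lower in that fit. Ankrd37, chosen here after its values were seen, was read at 3.75, 5.004 and 4.21 CPM in Ctrl and at 9.61, 8.78 and 6.26 CPM in cKO, 1.90-fold without overlap, with a limma adjusted p of 0.567, and of 0.0874 with the block. Car12, also chosen after its values were seen, was lower without overlap. It was read at 6.01, 7.54 and 4.93 CPM in Ctrl and at 3.82, 3.71 and 2.97 CPM in cKO. Arnt2 was also lower without overlap, with means of 2.04 CPM in Ctrl and 1.01 CPM in cKO. Of the 26, 15 (57.7%) had a higher mean in cKO, against 41% of all tested genes, and the median log2 difference was 0.077, against -0.038.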

How the data were processed

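Thymic iNKT1 cells of 3 Ctrl and 3 cKO libraries were measured by RNA-seq, with a Qiagen RNA kit and the NuGEN Ovation Ultralow system per the labels' protocols. Reads were processed with Trimmomatic 0.33, STAR 2.5.2, HTSeq 0.6.1 and edgeR on mm10, per the submitters' processing notes. The authors deposited CPM per library, with a log2 fold change and an adjusted p-value per gene. The columns named WT and KO were taken as Ctrl and cKO. Reads were recovered from the CPM steps, and 100% of the values were whole within 0.01.

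Group differences were fitted with limma 3.58.1 (R 4.3.3) on log2(CPM + 1), a scale that understates differences of low genes. Genes had a mean of at least 1 CPM, group was the only term, and a mean-variance trend and robust moderation were used. P-values were adjusted by Benjamini-Hochberg over 15691 genes, at a threshold of 0.05. Alternatives were the replicate block, TMM scaling, pseudocounts of 0.25 and 5, other filters, edgeR 4.0.16 (quasi-likelihood) and DESeq2 1.42.0 on the recovered reads, replicates 1 and 2 alone, and leaving out each library. The script was tested on simulated counts. Deviations of same-numbered libraries from their group means correlated at 0.855, 0.687 and 0.924 across genes, which met the limit of 0.1 set for taking the numbers as pairs. The labels do not state pairing. Replicates 1 and 2 also correlated across numbers (0.718 and 0.578), so the limit of 0.1 cannot tell which of them belong together. Ctrl replicate 2 correlated better with cKO replicate 1 than with its own number. Replicate 3 correlated with the others at -0.698 to -0.886. DESeq2 gave no adjusted p-value for 3042 genes, 0 of them members.

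The members and lists were chosen with earlier results of these data known. Values in every library are given for Emb, Bsg, the leading member of each step and members past the threshold in either limma fit. They are also given for transporters and up to 10 other pathway genes past the threshold. Further members are named for the shape of their values, seen beforehand: Hk2, Egln3, Pfkp, Pfkfb3, Aldoc, Gapdh, Eno3 and Tkt. Exon lengths, overlaps and near-identical copies (at least 95% over 300 bases) came from GENCODE M21. Depth bears on counting error only, and no molecular identifiers are described in the labels.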

Additional observations from a re-analysis of the deposited data

How the results depend on the processing

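The 3 members called became 4 with the replicate block, 5 with TMM scaling and the block, 6 with DESeq2, 0 with edgeR's quasi-likelihood test, and 0 to 1 when 1 library was left out. Over all genes, the 104 called became 451 with the block, 513 with TMM scaling and the block, 41 with edgeR, 469 with edgeR and the block, 552 with DESeq2, 296 in replicates 1 and 2 alone, and 14 to 97 when 1 library was left out. The 0 other pathway genes called became 8 with the block, 10 with TMM scaling and the block, 6 with edgeR and the block, 7 with DESeq2, 3 in replicates 1 and 2 alone, and 0 to 1 when 1 library was left out. Among the members, the block changed no call of the limma fit on CPM other than that of Pkm. Under TMM scaling it moved the members called from 2 to 5, adding Hif1a, Pfkp and Pkm, and under edgeR from 0 to 3, adding Emb, Ldhb and Hif1a.

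The members' median log2 difference of 0.071 became 0.135 with TMM scaling, with or without the block, 0.118 over genes of at least 5 CPM, 0.121 with edgeR, 0.115 with edgeR and the block, 0.125 with DESeq2, 0.095 in replicates 1 and 2 alone, and 0.027 to 0.117 when 1 library was left out. The median of all tested genes ran from -0.157 to 0.0885 when 1 library was left out, and was above that of the members without cKO replicate 3. Between 17 and 21 members were higher when 1 library was left out, against 19. The cause of these moves was not tested, beyond fewer samples where libraries were left out. Emb and Ldhb were called in 10 of 11 alternatives other than leaving out 1 library and Hif1a in 9, and all 3 were higher in all of them. The log2 difference of Emb ran from 1.49, with a pseudocount of 5, to 2.81.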

Other observations

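The symbol Tigar, a regulator that diverts glucose to the pentose phosphate pathway, did not match a row of the table by name. Its identifier, ENSMUSG00000038028, was listed as 9630033F20Rik, which RefSeq gives as a synonym. That row was read at 10.1, 11.2 and 11.9 CPM in Ctrl and at 13.4, 9.92 and 12.6 CPM in cKO, with overlap between the groups.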
